A study of Rattus norvegicus with 17 samples.

Results

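The genes described are the nuclear genes for the subunits of the mitochondrial respiratory chain and the ATP synthase. They were taken from the deposited expression table as the rows paired with exactly 1 gene symbol that fits a rule. The symbol starts with Nduf (complex I), Sdh (complex II), Uqcr (complex III), Cox4 to Cox8 (complex IV) or Atp5 (complex V), or is Cyc1 (complex III). Assembly factors named Ndufaf and Sdhaf were left out. Where a gene had several rows, the row with the highest mean over the 17 arrays stood for it. The rule found 77 genes among the 14506 genes with a row, namely 34 of complex I, 4 of complex II, 7 of complex III, 16 of complex IV and 16 of complex V. Of these, 74 passed the filter on low values and were tested, and Cox4i2, Cox8c and Cox6c-ps1, all of complex IV, did not. Of 111 protein-coding rat genes in RefSeq whose symbols match the rule, 75 had a row, so subunits such as Ndufa13, Uqcr10 and Cox6b1 were not analysed here. Cyc1 was not among the genes found either.

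Complex I passes electrons from NADH, and complex II from succinate, to ubiquinone in the inner mitochondrial membrane. Complex III hands them to cytochrome c and complex IV to oxygen. Complexes I, III and IV pump protons, and complex V, the ATP synthase, uses the proton gradient to make ATP. Resting T cells draw much of their ATP from this chain, and activated T cells enlarge it while they also turn up glycolysis. Nearly all subunits are nuclear genes, as all the genes described here are.

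Expression was measured on 17 Affymetrix whole-transcript arrays, each with total RNA (250 ng) of CD4+ T cells sorted from lymph nodes. The donors were age matched female rats of the inbred strain Dark agouti (DA), and the labels give no age. All had been immunized with MOG (myelin oligodendrocyte glycoprotein), which induces experimental autoimmune encephalomyelitis (EAE), a rodent model of multiple sclerosis, and cells were taken from the inguinal nodes at day 7. The diet was deprived of vitamin D (0 IU, n = 5 arrays), regular (2 IU, n = 6) or supplemented (10 IU, n = 6) and was given from 5 weeks before immunization to the end. No unimmunized rats were among the groups, so every diet is seen in EAE only, and the sources used here do not say to which amount of feed the IU refer. The study asked how the vitamin D content of the diet affects the transcriptome of these cells. The labels call the arrays of a diet biological replicates without saying whether 1 array is 1 rat, and p-values therefore reflect only how these samples varied.

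Values are log2 expression values, so a difference of 1 is a doubling. All 9 CD4 T cell markers fixed for the check had a row and lay above the level filter. Their mean per array was 10.31 to 10.52 on 0 IU, 10.32 to 10.50 on 2 IU and 9.98 to 10.23 on 10 IU. The arrays of the 10 IU diet also had a narrower range of values. The spread of an array, taken as the SD (standard deviation) over all its rows, was 2.051 ± 0.0166 on 0 IU (SD, n = 5), 2.026 ± 0.022 on 2 IU (SD, n = 6) and 1.943 ± 0.0271 on 10 IU (SD, n = 6). In a two-sided exact permutation test it was lower on 10 IU than on 2 IU (p = 0.00216, adjusted over 3 comparisons 0.00649) and than on 0 IU (exact p = 0.00433, adjusted 0.00649), each the smallest p that the group sizes allow. The 0 IU and 2 IU arrays gave an exact p of 0.0693. Since spread runs with diet, the diet and whatever else narrowed these arrays cannot be told apart, and results that rest on it are given below with the spread taken into account.

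Supplementation was set against the regular diet first. Of the 74 genes tested, 58 (78.4%) were lower in T cells of rats on 10 IU than on 2 IU, 0 were higher and 16 did not pass limma's test at an adjusted p of 0.05. Over all 10879 genes tested, 22.9% were lower and 10.8% higher. At an unadjusted p under 0.05, 62 of the genes were lower and 1, the muscle isoform Cox8b, was higher, where 45.2% of all genes reached that p in either direction. The median change of the 74 genes was -0.38, beside 0.00 over all genes tested. Lower genes were found in every complex, with 28 of 34 in complex I, 4 of 4 in complex II, 6 of 7 in complex III, 8 of 13 in complex IV and 12 of 16 in complex V. The medians were -0.38 for complex I, -0.44 for complex II, -0.38 for complex III, -0.30 for complex IV and -0.34 for complex V, and each stayed negative when the arrays were quantile-normalized, loess-normalized, centred on their medians or adjusted for their spread. In 36 of the 74 genes every 10 IU array lay below every 2 IU array, beside 9.92% of all genes tested.

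For each array, the median over the 74 genes of the difference from the gene's 2 IU mean was -0.10 to 0.09 on 0 IU, -0.11 to 0.13 on 2 IU and -0.47 to -0.21 on 10 IU. All 6 arrays of the 10 IU diet therefore lay below all arrays of both other diets, while the 0 IU and 2 IU arrays overlapped. The same held within complexes I, II, III and V, and in complex IV for 5 of the 6 arrays. The exception was replicate 4 of the 10 IU diet, at -0.07 for complex IV. Among the 10 IU arrays the lowest median was that of replicate 2 in complexes I and V, of replicate 5 in complex II, of replicate 6 in complex III and of replicate 3 in complex IV.

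**Figure D1:**
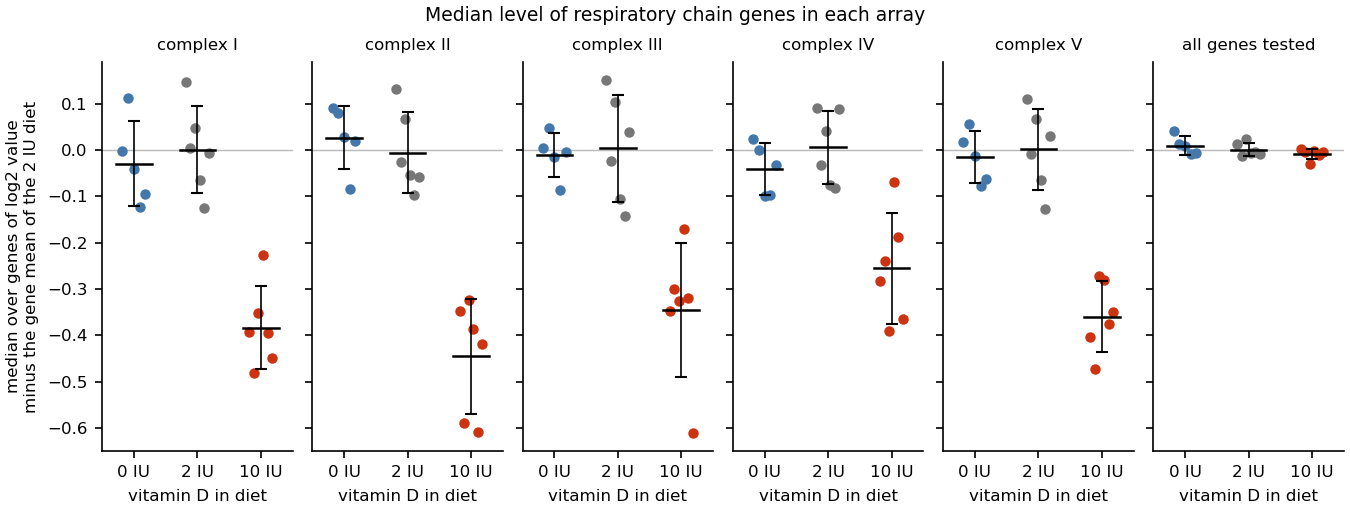
Each point is 1 array. The vertical axis gives the median, over the tested genes of a complex, of the log2 value minus the gene's mean on the 2 IU diet, and the horizontal axis gives the diet. Long bars mark the mean and whiskers the SD (n = 5, 6 and 6 arrays). The 10 IU arrays ran from -0.48 to -0.23 in complex I and from -0.61 to -0.32 in complex II, and over all genes tested (right panel) from -0.03 to 0.00.

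Promoters were looked at because the genes moved together. RefSeq promoters of rat build GRCr8, 250 bases before to 50 bases after the gene start, matched 67 of the 77 genes. Motifs were searched on both strands: the core GCGCANGCG of nuclear respiratory factor 1 (NRF1), CCGGAAG of ETS factors such as GABPA (also known as NRF2), AAGATGGC of YY1, and the E-box CACGTG that MYC can bind. None of these motifs contains another. The NRF1 core was in 25.4% of the 67 promoters, in 11.8% of 9479 promoters of tested genes and in 5.8% of all 33469 promoters. The ETS core was in 29.9%, against 16.2% and 8.75%. The YY1 core was in 19.4%, against 5.07% and 3.17%. The E-box was in 8.96%, near the 8.9% of tested genes and the 6.42% of all promoters. At least 1 of the NRF1, ETS and YY1 motifs was in 59.7% of these promoters and in 28.3% of those of tested genes. Of the 20 tested genes with an ETS core, 20 were lower on 10 IU than on 2 IU, as were 31 of the 46 with a promoter but no ETS core. Among all tested genes with a promoter, 36.8% of those with an ETS core and 21% of those without one were lower. For NRF1 the counts were 12 of 17 with and 39 of 49 without the core, beside 33% and 22.3% among all tested genes. For YY1 they were 11 of 13 and 40 of 53, beside 36.6% and 22.8%. The shares among tested genes were not matched for level, and 60 of the 74 genes belong to the highest 25% by level. Nothing is said here about binding, and a promoter without a match only lacks these letters in this window.

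For each complex the 250 bases before the start are shown for the gene with the largest fall on 10 IU among those with a RefSeq promoter, 5′ to 3′ on the gene's strand, with motif matches in capitals. They are Ndufa9 (chr4:161374171-161374420, minus strand), with no match in these bases and a YY1 core past the start, Sdhd (chr8:59850642-59850891, minus strand), which has a further ETS core past the start, Uqcrh (chr5:134790883-134791132, minus strand) and Cox5b (chr9:46417587-46417836, plus strand), each with 1 ETS core in these bases, and Atp5mg (chr8:54130408-54130657, minus strand), with an NRF1 core, an ETS core and an E-box in that order.
Ndufa9: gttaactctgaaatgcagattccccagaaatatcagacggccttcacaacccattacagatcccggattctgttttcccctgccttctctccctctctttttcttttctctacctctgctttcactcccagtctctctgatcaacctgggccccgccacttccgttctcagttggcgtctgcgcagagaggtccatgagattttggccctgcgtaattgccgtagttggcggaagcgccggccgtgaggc
Sdhd: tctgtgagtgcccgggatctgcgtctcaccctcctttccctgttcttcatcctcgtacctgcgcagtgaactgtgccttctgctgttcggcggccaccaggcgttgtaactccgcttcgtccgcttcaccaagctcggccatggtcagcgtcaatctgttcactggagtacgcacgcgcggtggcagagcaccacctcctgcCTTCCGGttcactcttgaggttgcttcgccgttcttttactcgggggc
Uqcrh: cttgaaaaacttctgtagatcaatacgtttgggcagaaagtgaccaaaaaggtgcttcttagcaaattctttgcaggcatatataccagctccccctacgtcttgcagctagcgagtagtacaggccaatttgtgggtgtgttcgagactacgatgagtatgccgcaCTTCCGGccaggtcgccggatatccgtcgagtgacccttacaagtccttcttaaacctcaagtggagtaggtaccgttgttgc
Cox5b: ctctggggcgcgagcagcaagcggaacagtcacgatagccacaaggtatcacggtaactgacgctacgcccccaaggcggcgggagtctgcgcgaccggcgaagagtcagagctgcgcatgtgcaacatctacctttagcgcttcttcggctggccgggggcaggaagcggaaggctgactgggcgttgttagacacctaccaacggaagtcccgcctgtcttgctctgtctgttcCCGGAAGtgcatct
Atp5mg: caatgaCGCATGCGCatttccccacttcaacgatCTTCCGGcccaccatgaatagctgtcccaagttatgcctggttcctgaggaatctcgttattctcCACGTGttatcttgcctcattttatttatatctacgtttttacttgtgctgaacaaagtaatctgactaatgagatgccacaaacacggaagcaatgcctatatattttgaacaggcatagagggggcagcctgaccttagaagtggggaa

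Complex I is the largest of the complexes, with core subunits that carry the electrons and accessory subunits around them. On 10 IU, 5 of 6 core genes (median -0.28) and 23 of 28 accessory genes (median -0.41) were lower than on 2 IU. The largest fall of all 74 genes was that of Ndufa9, an accessory subunit between the matrix arm and the membrane arm, which was at 9.56, 9.53, 9.52, 9.42 and 9.52 in the 0 IU arrays, 9.25 to 9.65 (median 9.44) in the 2 IU arrays and 7.87 to 8.80 (median 8.27) in the 10 IU arrays. Every 10 IU array lay below every other array, and the change of 10 IU against 2 IU was -1.14 (SE 0.13, adjusted p = 2.25e-06). Ndufa2, an accessory subunit of the matrix arm, was at 8.95, 9.15, 9.02, 8.73 and 8.84 on 0 IU, between 9.01 and 9.18 (median 9.07) on 2 IU and between 8.09 and 8.49 (median 8.23) on 10 IU. Its 10 IU arrays too were below all others, and it changed by -0.83 (SE 0.07, adjusted p = 5.07e-07). Values for Ndufb7, an accessory subunit on the outer face of the membrane arm, were 8.87, 9.14, 8.97, 8.82 and 8.83 in the 0 IU arrays, 8.87 to 9.42 (median 9.04) in the 2 IU arrays and 7.98 to 8.55 (median 8.27) in the 10 IU arrays. Again the 10 IU arrays were all below the rest, with a change of -0.78 (SE 0.09, adjusted p = 4.03e-06).

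The core subunits take up the electrons and pass them on. Ndufv1, which binds NADH and the flavin that takes its electrons, had 8.92, 8.96, 8.80, 8.67 and 8.66 at 0 IU, from 8.65 through a median of 8.81 up to 9.06 at 2 IU, and from 8.13 through a median of 8.48 up to 8.67 at 10 IU. Its 10 IU arrays overlapped both other diets at their upper end, and the change was -0.39 (SE 0.09, adjusted p = 0.00152). Ndufs1, the large iron-sulphur subunit, was at 9.45, 9.53, 9.37, 9.40 and 9.46 on 0 IU, between 9.00 and 9.42 (median 9.29) on 2 IU and between 8.96 and 9.14 (median 9.02) on 10 IU. It overlapped the 2 IU arrays but not the 0 IU arrays and changed by -0.22 (SE 0.06, adjusted p = 0.0116). The other lower core genes were Ndufs3, Ndufs8 and Ndufv2, and Ndufs7, which carries the last iron-sulphur cluster before ubiquinone, changed by -0.09 (SE 0.10, adjusted p = 0.479). Of the 29 complex I genes not given by array, 23 were lower, from -0.75 to -0.25, and 6 did not pass, from -0.23 to 0.04. The 6 were Ndufa5, Ndufa10, Ndufab1, Ndufb5, Ndufs5 and Ndufs7. Ndufab1 is also the mitochondrial acyl carrier protein. The gene at -0.75 was Ndufs6-ps1, which carries a pseudogene name while Ndufs6 itself was not analysed here, so which transcript its probes measured is uncertain. Ndufa4, which the rule places here although its protein was later assigned to complex IV in human cells, changed by -0.39 (SE 0.06, adjusted p = 6.86e-05).

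All 4 genes of complex II, succinate dehydrogenase, which also works in the citric acid cycle, were lower on 10 IU. Sdha, the flavoprotein that oxidizes succinate, was at 8.37, 8.29, 8.22, 8.13 and 8.33 in the 0 IU arrays, 8.11 to 8.43 (median 8.23) in the 2 IU arrays and 7.60 to 8.03 (median 7.86) in the 10 IU arrays. Its change against 2 IU was -0.40 (SE 0.07, adjusted p = 0.000204). Sdhb, the iron-sulphur subunit, was at 8.21, 8.32, 8.19, 8.21 and 8.24 on 0 IU, between 8.01 and 8.29 (median 8.13) on 2 IU and between 7.48 and 7.90 (median 7.80) on 10 IU, and it changed by -0.39 (SE 0.07, adjusted p = 0.000172). The membrane anchors moved in the same direction. Sdhc had 10.62, 10.54, 10.51, 10.45 and 10.46 at 0 IU, from 10.41 through a median of 10.46 up to 10.63 at 2 IU, and from 9.57 through a median of 10.07 up to 10.35 at 10 IU, with a change of -0.49 (SE 0.09, adjusted p = 0.000398). Sdhd had 9.40, 9.46, 9.44, 9.05 and 9.18 in the 0 IU arrays, 9.23 to 9.48 (median 9.30) in the 2 IU arrays and 8.49 to 8.94 (median 8.78) in the 10 IU arrays, with a change of -0.57 (SE 0.08, adjusted p = 2.47e-05). For each of the 4 genes the 10 IU arrays lay below all arrays of both other diets, and the 0 IU and 2 IU arrays overlapped. With the array spread as a covariate the change of Sdhc turned to 0.06 and did not pass.

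In complex III, 6 of 7 genes were lower on 10 IU. Uqcrb, a small subunit near a ubiquinone site, was at 9.87, 9.98, 9.81, 9.85 and 9.81 in the 0 IU arrays, 9.78 to 10.09 (median 9.94) in the 2 IU arrays and 9.21 to 9.49 (median 9.33) in the 10 IU arrays. All arrays on 10 IU were below the rest, with a change of -0.60 (SE 0.06, adjusted p = 1.3e-06). Uqcrh, the hinge protein that helps cytochrome c dock, was at 11.52, 11.60, 11.42, 11.43 and 11.49 on 0 IU, between 11.38 and 11.48 (median 11.44) on 2 IU and between 10.83 and 11.15 (median 11.05) on 10 IU. Its 10 IU arrays were also below the rest, with -0.42 (SE 0.06, adjusted p = 2.72e-05). Uqcrfs1, the Rieske iron-sulphur protein, had 8.57, 8.79, 8.71, 8.68 and 8.76 at 0 IU, from 8.40 through a median of 8.60 up to 8.67 at 2 IU, and from 7.77 through a median of 8.26 up to 8.39 at 10 IU. Its 10 IU arrays were below all others and its change was -0.39 (SE 0.09, adjusted p = 0.00158). Uqcrc1, a core protein on the matrix side, was the gene that did not pass, at 8.22, 8.13, 8.10, 8.02 and 8.09 in the 0 IU arrays, 7.91 to 8.33 (median 8.03) in the 2 IU arrays and 7.76 to 8.21 (median 7.90) in the 10 IU arrays. Its 3 groups overlapped, and the change was -0.15 (SE 0.08, adjusted p = 0.146). The other core protein, Uqcrc2, and the small subunits Uqcr11 and Uqcrq changed by -0.38 to -0.25.

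In complex IV, cytochrome c oxidase, 8 of 13 tested genes were lower on 10 IU, here grouped by kind with these results known. Of its 9 widely expressed subunits 7 were lower, and so was Cox7a2l, a relative of Cox7a2 that joins complexes III and IV. The 3 tested isoforms typical of other tissues did not pass: Cox6a2 and Cox8b of muscle changed by 0.08 (SE 0.08) and 0.21 (SE 0.09), and Cox6b2 of testis by 0.19 (SE 0.12). Their levels lay near the filter limit of 5.32 in Cox8b and below 7 in the others. Cox4i1, the common form of subunit 4, was at 11.42, 11.45, 11.34, 11.30 and 11.29 in the 0 IU arrays, 11.13 to 11.34 (median 11.26) in the 2 IU arrays and 10.44 to 10.90 (median 10.69) in the 10 IU arrays. Each array on 10 IU was below the others, with a change of -0.55 (SE 0.07, adjusted p = 9.76e-06). Cox5b, a zinc-binding subunit, was at 9.91, 9.91, 9.75, 9.65 and 9.81 on 0 IU, between 9.64 and 9.99 (median 9.80) on 2 IU and between 8.88 and 9.43 (median 9.22) on 10 IU. Its 10 IU arrays likewise lay below all others, while the 0 IU and 2 IU arrays overlapped, with -0.65 (SE 0.09, adjusted p = 3.01e-05). Cox7b, a small membrane subunit, had 10.12, 10.23, 10.06, 9.95 and 9.90 at 0 IU, from 10.09 through a median of 10.40 up to 10.66 at 2 IU, and from 9.54 through a median of 9.75 up to 10.00 at 10 IU. The 10 IU arrays lay below the 2 IU arrays and overlapped the 0 IU arrays, and the change was -0.64 (SE 0.10, adjusted p = 3.72e-05).

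Cox5a, a nuclear-encoded subunit on the matrix side, was at 11.60, 11.64, 11.50, 11.50 and 11.56 in the 0 IU arrays, 11.30 to 11.46 (median 11.42) in the 2 IU arrays and 11.12 to 11.49 (median 11.35) in the 10 IU arrays. The 10 IU arrays spanned the range of the 2 IU arrays, the change was -0.06 (SE 0.06, adjusted p = 0.426), and the 0 IU arrays lay above both. The other row for this gene gave -0.07. Of the 9 complex IV genes not given by array, 5 were lower, from -0.39 to -0.19, and 4 did not pass, from -0.17 to 0.21.

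The genes of complex V are given by the parts of the enzyme, a grouping made with these results known. All 5 genes of the F1 head and its rotor stalk were lower on 10 IU, as were 4 of 4 of the peripheral stalk and 3 of 3 small membrane subunits. None of the 3 genes for subunit c, which forms the ring, passed in limma's test, nor did the inhibitor Atp5if1. The changes of the subunit c genes were -0.20 (SE 0.08) for Atp5mc1, -0.37 (SE 0.17) for Atp5mc2 and -0.12 (SE 0.06) for Atp5mc3. Their unadjusted p-values were 0.019, 0.042 and 0.0505. A dimmer row of Atp5mc3 changed by -0.33 with an unadjusted p of 0.000233 in limma's fit over all rows, so the rows of that gene disagree. These genes encode the same mature protein.

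Atp5f1b, the catalytic beta subunit, was at 10.21, 10.15, 10.22, 10.11 and 10.07 in the 0 IU arrays, 9.85 to 10.10 (median 9.97) in the 2 IU arrays and 8.97 to 9.48 (median 9.28) in the 10 IU arrays. Every 10 IU array was below every other array, and the change was -0.74 (SE 0.08, adjusted p = 1.33e-06). Atp5f1a, the alpha subunit, was at 10.31, 10.23, 10.19, 10.10 and 10.14 on 0 IU, between 10.02 and 10.30 (median 10.14) on 2 IU and between 9.50 and 9.90 (median 9.68) on 10 IU. Its 10 IU arrays were likewise below all others, with -0.45 (SE 0.07, adjusted p = 3.13e-05). Atp5mg, subunit g of the membrane part, had 8.93, 9.01, 9.01, 8.31 and 8.57 at 0 IU, from 8.91 through a median of 9.07 up to 9.29 at 2 IU, and from 7.65 through a median of 8.20 up to 8.41 at 10 IU. The 10 IU arrays lay below all 2 IU arrays, with 1 of the 0 IU arrays, at 8.31, inside their range and the others above it, and the change was -0.95 (SE 0.12, adjusted p = 9.42e-06). RefSeq lists 8 named pseudogenes and 3 like-named genes for Atp5mg, so its probes may also read copies. The inhibitor Atp5if1, which blocks the enzyme when it runs backwards, was at 10.48, 10.75, 10.49, 10.45 and 10.41 in the 0 IU arrays, 10.31 to 10.62 (median 10.53) in the 2 IU arrays and 10.13 to 10.51 (median 10.32) in the 10 IU arrays. The 10 IU arrays overlapped both other diets, and the change was -0.17 (SE 0.08, adjusted p = 0.0916). Of the 11 complex V genes not given by array, 8 were lower, from -0.48 to -0.24, and 3 did not pass, from -0.37 to -0.12.

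**Figure D2:**
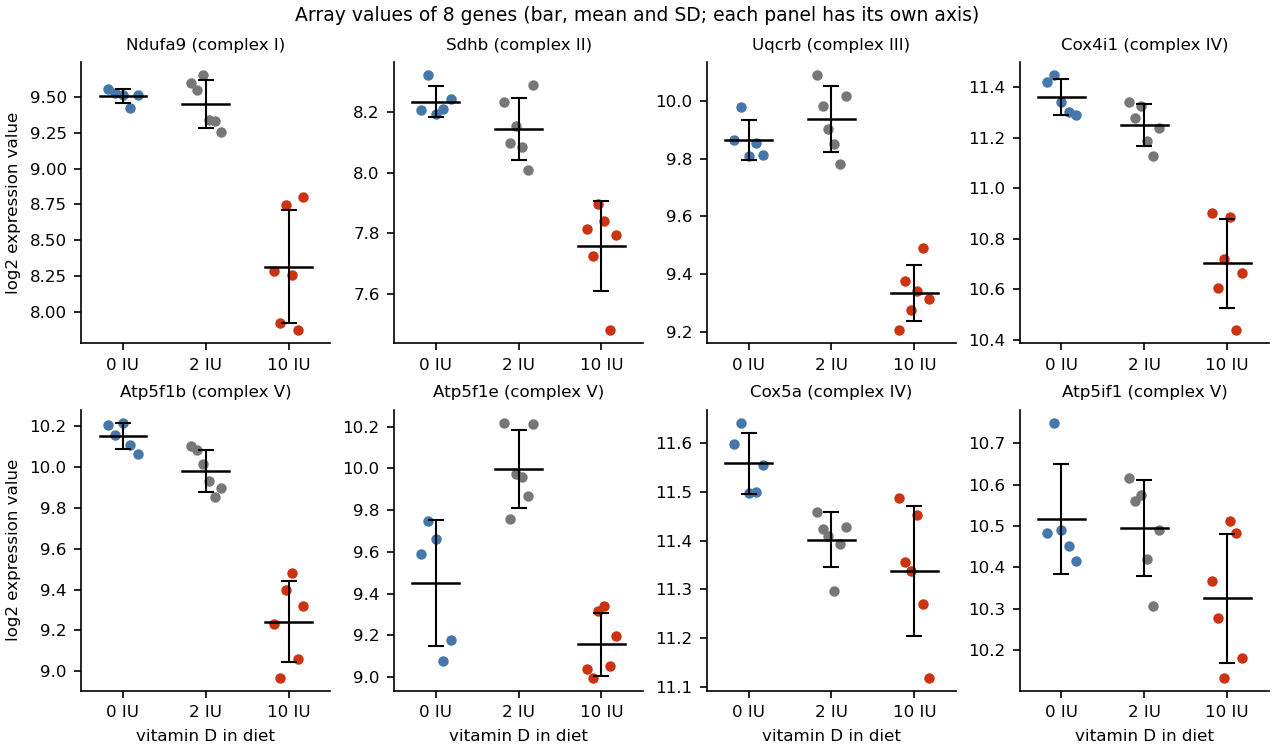
Log2 expression values of 8 genes by diet, with 1 point per array, the mean as a long bar and the SD as whiskers (n = 5, 6 and 6). Ndufa9, Sdhb, Uqcrb, Cox4i1 and Atp5f1b had all 10 IU arrays below both other diets, in Atp5f1e the 0 IU and 10 IU arrays both lay below the 2 IU arrays, in Cox5a the 0 IU arrays lay above the rest, and in Atp5if1 all groups overlapped.

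Deprivation was then set against the regular diet. Only Atp5f1e, the epsilon subunit of the F1 part, differed, and it was lower on 0 IU. It was at 9.59, 9.75, 9.66, 9.08 and 9.18 on 0 IU, between 9.76 and 10.22 (median 9.97) on 2 IU and between 9.00 and 9.34 (median 9.13) on 10 IU. The 0 IU arrays all lay below the 2 IU arrays, with replicates 5 and 6 of the 0 IU diet lowest, and the change of 0 IU from 2 IU was -0.55 (SE 0.11, adjusted p = 0.0185). On 10 IU the gene was also lower than on 2 IU, with a change of -0.84 (SE 0.11, adjusted p = 8.45e-06). The call at 0 IU was lost without replicate 6 of the 0 IU diet or without replicate 6 of the 2 IU diet, where 0 genes passed in limma's test while 17 and 19 had an unadjusted p under 0.05. It is 1 of 74 lower and 0 higher, beside 0.184% lower and 1.49% higher among all genes tested. RefSeq names 1 pseudogene of Atp5f1e.

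The median change on 0 IU was -0.02 over the 74 genes. By complex it was -0.02 in complex I, 0.02 in complex II, 0.03 in complex III, -0.04 in complex IV and -0.01 in complex V. Single arrays of a diet varied in the median over the 74 genes with an SD of 0.08, which is not the error of a difference between diets. The medians do not show that the diets were alike. At an unadjusted p under 0.05, 13 genes were lower and 8 higher on 0 IU, which is 21 of 74 where 16.7% of all genes reached that p. The 13 lower ones were Ndufa7, Ndufa11, Ndufb8, Ndufv3, Uqcr11, Uqcrq, Cox7a2, Cox7b, Cox8a, Atp5f1e, Atp5mc2, Atp5me and Atp5mg. The 8 others were Ndufs1, Ndufs3, Ndufv2, Cox5a, Cox8b, Atp5f1b, Atp5mc3 and Atp5pf. This split depended on scaling. At that p 19 were lower and 3 higher under quantile normalization, 21 and 2 under loess normalization, and 22 and 2 with the array spread as a covariate. Of the 74 changes 55, 58 and 52 were then negative, against 38 on the deposited values. The medians over the 74 genes were -0.07, -0.06 and -0.09. The 0 IU and 2 IU arrays did not overlap in 3 lower genes, Atp5f1e, Cox7a2 (-0.38, adjusted p = 0.0532) and Atp5me (-0.26, adjusted p = 0.108), beside 1.01% of all genes tested, and in 2 higher ones, Cox5a and Atp5mc3, beside 4.52%. The dimmer row of Atp5mc3 changed by -0.0027. Ndufv3, a small subunit of the NADH-binding part, changed by -0.31 (SE 0.09, adjusted p = 0.0851) and passed under quantile normalization (-0.37, adjusted p = 0.0432) and loess normalization (-0.38, adjusted p = 0.0318). Its rows disagree: the dimmer row changed by -0.15 on 0 IU against 2 IU (unadjusted p = 0.206 in limma's fit over all rows) and by -0.54 on 10 IU against 0 IU (unadjusted p = 0.000152 in that fit), where the row used changed by -0.02.

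The supplemented and the deprived diet were compared last. This comparison shares its arrays with the other pair, so its values are given side by side with them and are not a second test of either. Of the 74 genes 50 (67.6%) were lower on 10 IU than on 0 IU and 0 were higher in limma's test, with a median change of -0.35. Over all genes tested 28.6% were lower and 18.6% higher. At an unadjusted p under 0.05, 54 were lower and 2, Ndufa5 and Cox6b2, were higher, where 55.2% of all genes reached that p in either direction. Under quantile normalization 33 passed, 30 lower and 3 higher (Ndufa5, Cox7a2 and Ndufv3), with a median of -0.13. Loess normalization gave 29, of which 27 were lower and 2 higher (Ndufa5 and Cox7a2), and a median of -0.13. Of all 10879 genes 3567 and 3533 passed in these settings, in either direction. With the array spread as a covariate 0 of the 74 passed in limma's test, with a median of -0.071. At an unadjusted p under 0.05 there were then 9 lower and 4 higher, where 11.1% of all genes reached that p. By complex, 24 of 34 genes of complex I, 4 of 4 of complex II, 4 of 7 of complex III, 6 of 13 of complex IV and 12 of 16 of complex V were lower. Among the highest 25% of all genes tested by level 65.3% were lower in this pair. The shares of complex III (57.1%) and complex IV (46.2%) lay below that. In 39 genes every 10 IU array lay below every 0 IU array, beside 17.7% of all genes. The largest changes were those of Ndufa9, -1.19 (SE 0.13, adjusted p = 7.68e-07), and Atp5f1b, -0.91 (SE 0.08, adjusted p = 1.24e-07). The complex IV median, -0.22, became 0.01 under quantile normalization, and Cox5a, at -0.22 (SE 0.06, adjusted p = 0.00823), became 0.01 there and 0.06 under loess normalization.

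Across the 3 diets 61 of the 74 genes (82.4%) differed in the moderated F test, beside 45.3% of all genes tested. With the array spread as a covariate 6 of the 74 passed that test, of 72 among all genes. By complex the 61 were 28 of 34 in complex I, 4 of 4 in complex II, 6 of 7 in complex III, 9 of 13 in complex IV and 14 of 16 in complex V. The calls of the pairs were then combined. Of all genes tested 22.9% were lower on 10 IU than on 2 IU and 28.6% than on 0 IU. Among the 2720 tested genes with the highest levels these shares were 52.6% and 65.3%. The combined patterns were counted for the 74 genes only, so whether they are particular to these genes was not tested. In 46 of the 74 genes 10 IU was lower than both other diets. In 12 it was lower than 2 IU only, namely Ndufa3, Ndufa7, Ndufa12, Ndufb2, Ndufb8, Ndufv3, Uqcr11, Uqcrq, Cox7a2, Cox7a2l, Cox8a and Atp5f1d. In 4 it was lower than 0 IU only, namely Ndufb5, Ndufs5, Cox5a and Atp5mc3. The remaining 12 passed in none of the pairs. By their means, 35 genes (47.3%) ran downwards from 0 over 2 to 10 IU, an order that 29.8% of all genes had, and 32 (43.2%) were highest on 2 IU and lowest on 10 IU, an order that 13.5% of all genes had. Between 0 and 2 IU 1 gene passed, so for the others the order of those diets rests on means that the test did not separate.

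**Figure D3:**
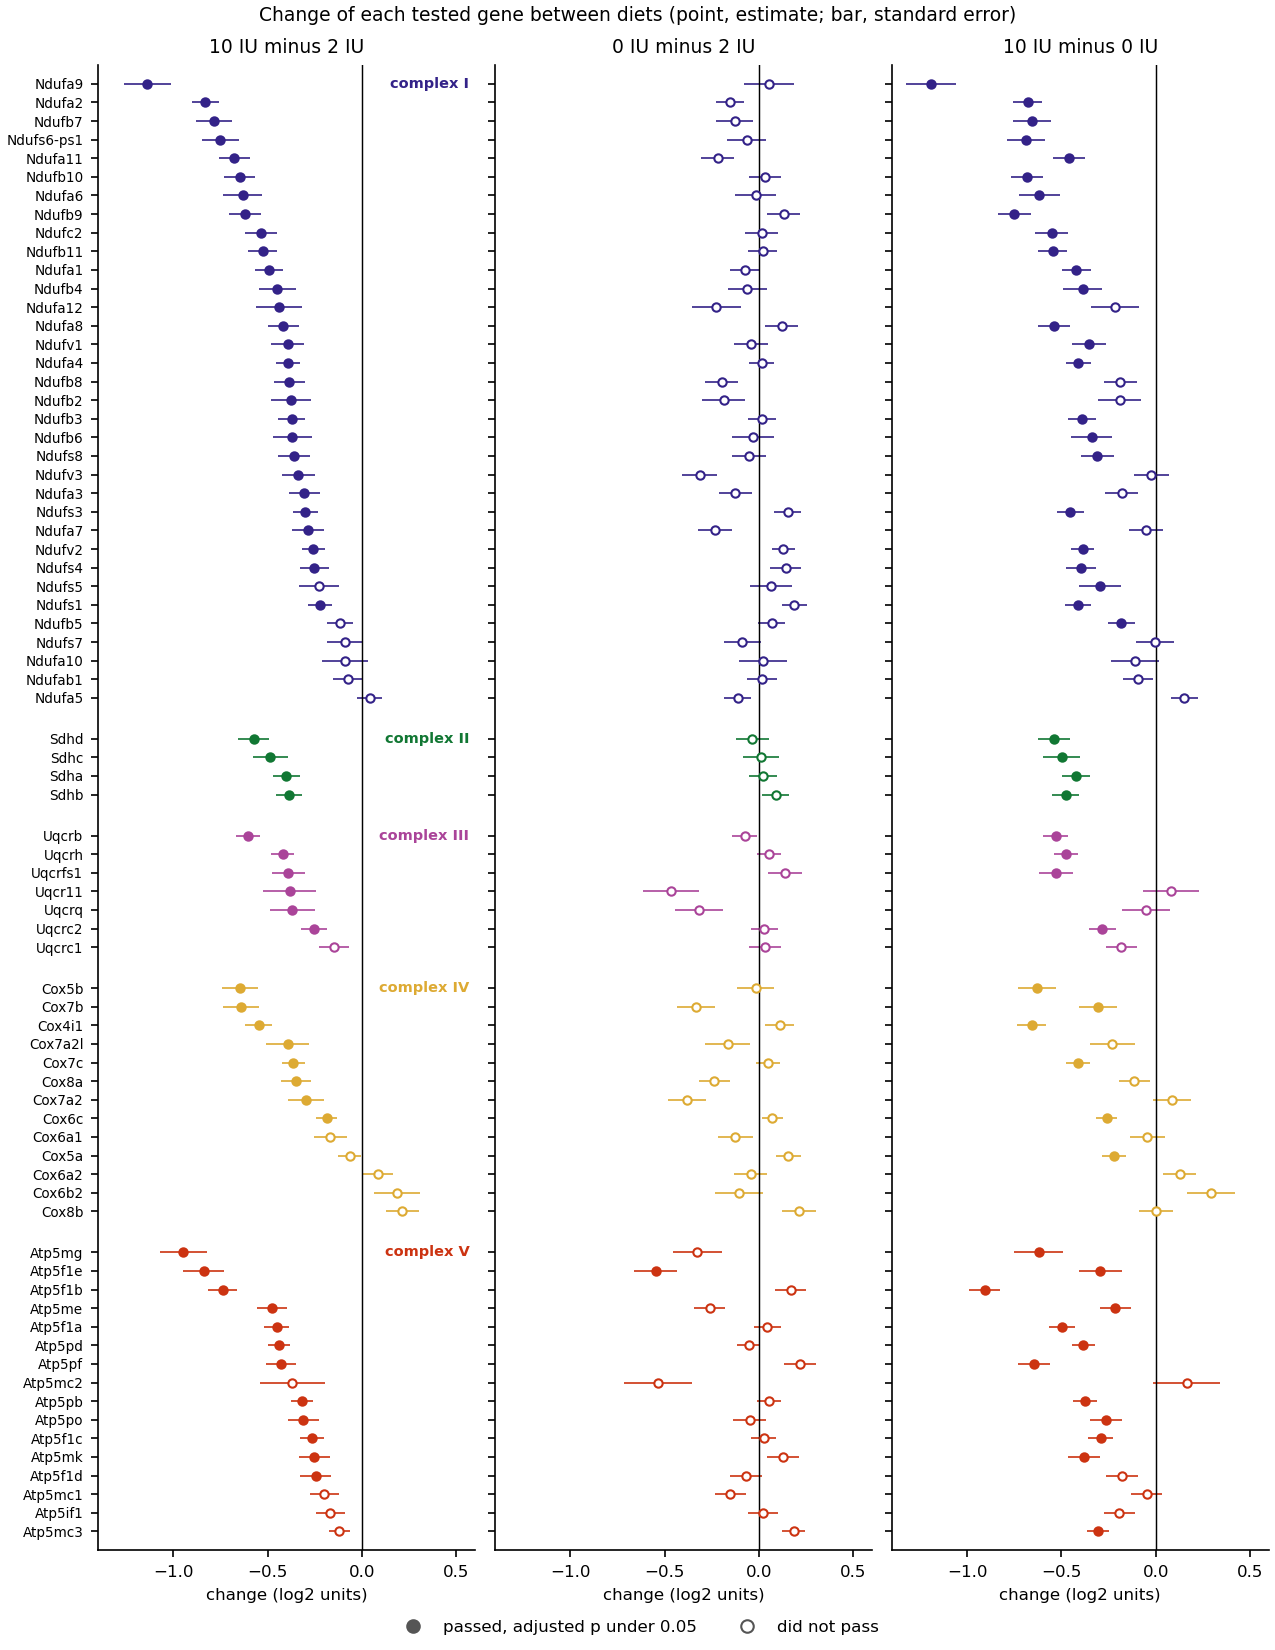
Change of each of the 74 tested genes in log2 units on the horizontal axis, with the standard error of the model as a bar, grouped by complex and ordered by the change of 10 IU from 2 IU. Filled points passed at an adjusted p of 0.05. In the left panel (10 IU minus 2 IU) 58 points are filled, in the middle panel (0 IU minus 2 IU) 1 and in the right panel (10 IU minus 0 IU) 50, all of them left of 0. Ndufa5 was higher on 10 IU than on 2 IU under quantile and loess normalization.

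Abundant transcripts as a whole were lower on the narrower 10 IU arrays, so the level of the genes is given beside their change. The tested genes had a median level of 9.21 over the 17 arrays, against 7.07 for all genes tested. The change of 10 IU against 2 IU correlated with the level at r = -0.51 across 10879 genes and at -0.22 across the 74, where genes are not independent of each other. Of the 74 genes 60 belonged to the highest 25% of genes by level, those above 8.34. Among all 2720 genes of that band, 52.6% were lower on 10 IU than on 2 IU, with a median change of -0.21. Of the 60 respiratory genes in it 49 were lower (81.7%), with a median of -0.39. On 10 IU against 0 IU the band had 65.3% lower genes and a median of -0.28, and the 60 had 44 lower (73.3%) and a median of -0.38. The share for all 74 genes in that pair, 67.6%, is near that of the band. On 0 IU against 2 IU the band had a median of 0.08 and the 60 genes one of 0.00.

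**Figure D4:**
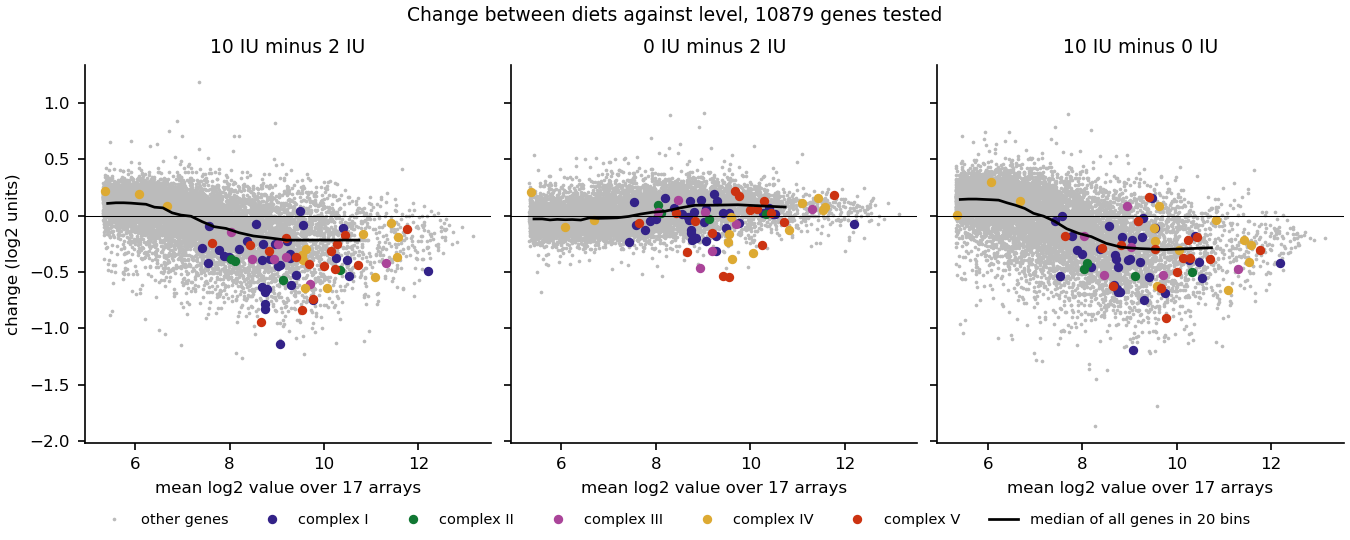
Change in log2 units against the mean log2 value over the 17 arrays, with 1 point per gene tested. Coloured points are the respiratory genes by complex, grey points all other genes, and the black line joins the medians of all genes in 20 bins of equal size. In the left panel (10 IU minus 2 IU) most coloured points lie below the line, whose own values are below 0 at high levels, and in the middle panel (0 IU minus 2 IU) they lie on both sides of 0.

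How the arrays were scaled changed the counts. Of the 58 genes lower on 10 IU than on 2 IU, 40 were also lower after both quantile and loess normalization, among them all of complex II and Ndufa9, Ndufa2, Uqcrb, Cox4i1, Atp5f1a, Atp5f1b and Atp5mg. Quantile normalization, which gives all arrays the same spread, left 41 lower and 1 higher, Ndufa5 (0.22, adjusted p = 0.0126). Of all 10879 genes 2777 passed under quantile and 2690 under loess normalization, in either direction. With the spread of each array as a covariate 0 of the 74 genes, and 0 of all 10879, passed in limma's test of 10 IU against 2 IU. At an unadjusted p under 0.05 there were then 19 lower genes and 1 higher, where 11% of all genes reached that p in either direction. Of the 74 changes 60 were negative, with a median of -0.13, beside -0.0008 over all genes tested. In limma's test with this covariate Ndufa9 changed by -0.48 (adjusted p = 0.368), Ndufa2 by -0.55 (adjusted p = 0.186) and Atp5mg by -0.33 (adjusted p = 0.549). The spread runs with diet, and in this fit the 2 cannot be told apart.

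Genes that work with the chain were counted from lists chosen beside it. Over all genes tested 22.9% were lower and 10.8% higher on 10 IU than on 2 IU, and 52.6% of the highest 25% by level were lower. Of 15 tested genes of the citric acid cycle and pyruvate dehydrogenase 12 (80%) were lower and 0 higher, with a median of -0.32. The 12 included Suclg2, a succinyl-CoA ligase subunit, at -0.69 (SE 0.10, adjusted p = 3.6e-05), Idh3b of isocitrate dehydrogenase at -0.59 (SE 0.10, adjusted p = 0.000135) and Pdhb of pyruvate dehydrogenase at -0.35 (SE 0.06, adjusted p = 0.00017). On 0 IU none of the 15 passed in limma's test against 2 IU. At an unadjusted p under 0.05 there were 2, where 16.7% of all genes reached that p. Of 22 tested genes for electron carriers, coenzyme Q synthesis and exchange across the inner membrane, 10 (45.5%) were lower on 10 IU than on 2 IU and 1 (4.55%) was higher (median -0.16). Slc25a5, which exchanges ADP for ATP, changed by -0.66 (SE 0.07, adjusted p = 1.13e-06). Etfb, an electron-transferring flavoprotein, changed by -0.60 (SE 0.07, adjusted p = 3.71e-06), the outer membrane channel Vdac3 by -0.50 (SE 0.07, adjusted p = 1.06e-05) and cytochrome c, Cycs, by -0.40 (SE 0.09, adjusted p = 0.00133). The higher gene was Coq2, an enzyme of coenzyme Q synthesis, at 0.38 (SE 0.07, adjusted p = 0.000436).

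The assembly factors, which help to build the complexes, were counted apart. Of 34 tested, 13 (38.2%) were lower and 0 higher on 10 IU than on 2 IU in limma's test, beside 22.9% and 10.8% over all genes tested. At an unadjusted p under 0.05 there were 17, where 45.2% of all genes reached that p, and the median was -0.12. On 0 IU against 2 IU 2 (5.88%) were higher, beside 1.49% of all genes tested, and they are named here after their values were seen. They were Ttc19 of complex III assembly at 0.31 (SE 0.07, adjusted p = 0.0255) and Lrpprc, which stabilizes mitochondrial messenger RNAs, at 0.29 (SE 0.06, adjusted p = 0.0257). Those with the smallest p on 10 IU against 2 IU were the complex IV factors Coa3, at -0.73 (SE 0.09, adjusted p = 8.29e-06), Cox17, a copper chaperone, at -0.49 (SE 0.08, adjusted p = 0.000143), and Cox19 at -0.45 (SE 0.09, adjusted p = 0.000413). Among 14 tested regulators of mitochondrial gene expression 14.3% were lower and 7.14% higher on 10 IU than on 2 IU, both below the 22.9% and 10.8% over all genes tested. The 2 lower were Gabpa at -0.29 (SE 0.07, adjusted p = 0.00429) and Myc at -0.26 (SE 0.07, adjusted p = 0.00776), and the 1 higher was the mitochondrial RNA polymerase Polrmt at 0.21 (SE 0.08, adjusted p = 0.0382). Nrf1 changed by 0.10 (SE 0.05, adjusted p = 0.137), and Tfam, which packs mitochondrial DNA, by -0.20 (SE 0.11, adjusted p = 0.148). None of the regulators passed on 0 IU against 2 IU in limma's test. At an unadjusted p under 0.05 there was 1, where 16.7% of all genes reached that p. The 13 subunits that mitochondrial DNA encodes matched no named row and were not analysed here.

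**Figure D5:**
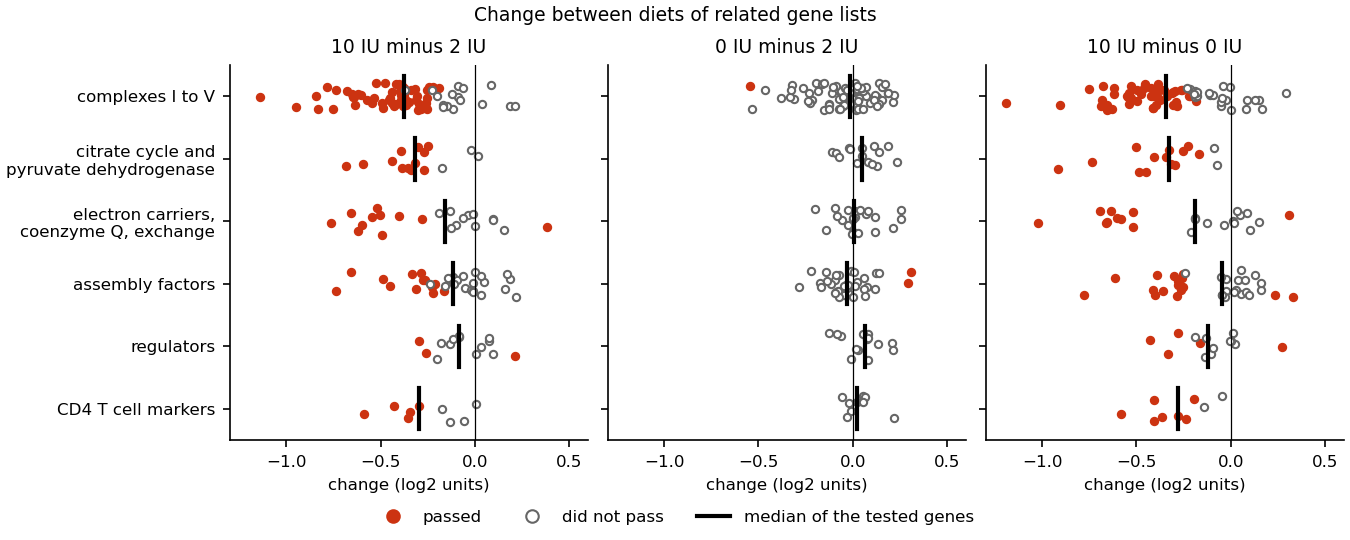
Change in log2 units of the tested genes of each list, with 1 point per gene, filled red where it passed at an adjusted p of 0.05, and a black bar at the list median. Points are spread vertically only to keep them apart. On 10 IU against 2 IU the medians were -0.38 for complexes I to V, -0.32 for the citric acid cycle and pyruvate dehydrogenase, -0.16 for carriers and exchange, -0.12 for assembly factors, -0.08 for regulators and -0.29 for the CD4 T cell markers.

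Markers of the sorted cells and of other lymph node cells moved beside these genes. Of the 9 CD4 T cell markers 5 (55.6%) were lower on 10 IU than on 2 IU, among them Cd4 itself at -0.59 (SE 0.11, adjusted p = 0.000301), with a list median of -0.29. That share is near the 52.6% of the highest 25% of genes by level, beside 22.9% of all genes tested. The mean of these markers lay above the start of that band, 8.34, in every array. Fewer cells of a type and less RNA per cell cannot be told apart in such samples. The mean over 16 macrophage, monocyte and neutrophil markers was 5.58 to 5.78 on 0 IU, 5.61 to 5.73 on 2 IU and 5.78 to 5.83 on 10 IU, so that the 10 IU arrays lay above the others. These means are near the filter limit of 5.32. All tested genes below the highest 25% by level had a median change of 0.05 on 10 IU against 2 IU. Whether the markers rose beyond other dim genes was not tested. Of the 11 tested macrophage, monocyte and neutrophil markers 3 (27.3%) were higher on 10 IU than on 2 IU (Tyrobp, Mrc1 and C1qb), beside 10.8% of all genes tested. Of the 16 markers 5 lay below the level filter. The mean of 6 B cell markers was 6.04 to 6.19 on 0 IU, 5.94 to 6.38 on 2 IU and 6.13 to 6.55 on 10 IU. Of 5 tested B cell markers 3 (60%) were higher and 0 lower on 10 IU than on 2 IU, beside 10.8% and 22.9% of all genes tested. The B cell marker with a negative change was Cd22, named after its values were seen, at -0.49 (SE 0.21, adjusted p = 0.0704) and, against 0 IU, at -0.59 (SE 0.22, adjusted p = 0.0319). Of 7 tested CD8 T and NK cell markers 1 was higher and 1 lower (14.3% each), and of 2 tested red blood cell markers 1 was higher. With the macrophage mean as a covariate 38 of the 74 respiratory genes were lower on 10 IU than on 2 IU, and with the B cell mean 50 were. The median change was -0.39 in both fits, against -0.38 without a covariate. Of all 10879 genes 1203 passed with the macrophage mean and 3549 with the B cell mean, in either direction, against 3661 without a covariate. The macrophage mean of every 10 IU array lay above that of all other arrays. That fit therefore cannot tell diet and these markers apart. For 39 of the 74 genes RefSeq names a pseudogene or a like-named copy that could share probes. Of these 31 were lower on 10 IU than on 2 IU, as were 27 of the 35 without one.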

How the data were processed

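The table used holds deposited log2 values, which the authors made with RMA (robust multi-array average) and Partek 6.0, per the submitters' processing notes. It has 1 value for each transcript cluster in each array. That the logarithm is to base 2 was inferred from their range. Genome build, filters, scan dates and batches are not stated in the sources used here. Of 29214 rows, 15310 had 1 gene symbol in the platform annotation, 323 had several and 13581 were not listed. Symbols were updated through the Entrez identifier, which was found in RefSeq for 15279 of the rows with 1 symbol.

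Each of 14506 genes was taken at its row with the highest mean, and the lowest 25% by mean were left out, which left 10879 genes with a mean of at least 5.321. One limma 3.58.1 model over the 3 diets (lmFit and eBayes in R 4.3.3, 14 residual and 8.19 prior degrees of freedom) gave 3 contrasts and a moderated F test. P-values were adjusted with Benjamini-Hochberg over all genes tested, at a threshold of 0.05. Errors are the model's standard errors (SE) for n = 5, 6 and 6 arrays, whose number limits the precision. The script was tested on simulated data. The 136 pairs of arrays correlated at 0.9773 to 0.9954, and no array was identical to another.

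The genes, lists and tests were chosen with earlier results of these data known. Values by array are given for the 3 lower genes with the largest change on 10 IU against 2 IU in each complex (all 4 of complex II), those that passed on 0 IU against 2 IU, and Sdha, Sdhb, Ndufs1, Ndufv1, Uqcrc1, Uqcrfs1, Cox4i1, Cox5a, Atp5f1a, Atp5f1b and Atp5if1. Cyc1 was also fixed for this but was not among the genes found. Of each list of other genes the 3 with the smallest p and Cycs, Slc25a5, Tfam, Nrf1, Gabpa and Myc are named. Exact permutation tests were run in Python 3.11.15 with scipy 1.17.1. Alternatives were quantile and cyclic loess normalization, median centring, other filters on dim genes, all rows, a variance trend, array weights, covariates, the replicate number as a block, 2 diets at a time, a threshold of 0.1 and each array left out.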

Additional observations from a re-analysis of the deposited data

Results flagged for a closer look

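In Atp5if1, the ATP synthase inhibitor, replicate 3 of the 0 IU diet was at 10.75, while the other 4 arrays of that diet ran from 10.41 to 10.49. The gap to the nearest array made up 0.776 of the range of the group, above Dixon's 95% critical value of 0.71 for 5 arrays. It was 1 of 87 groups looked at, and chance sets about 1 in 20 such groups apart.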

How the results depend on the processing

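The number of genes that passed stayed within 1.5 times the reported count, and the median change within the spread between arrays, under the alternatives not listed here. On 10 IU against 2 IU the median changed to -0.23 under quantile and -0.23 under loess normalization (42 and 41 genes passed, 1 of them higher in each). With the array spread as a covariate the median changed to -0.13. There 0 genes passed in limma's test (20 at an unadjusted p under 0.05, which 11% of all genes reached). With the macrophage marker mean as a covariate 38 passed, of 1203 among all genes, while the median was -0.39. On 10 IU against 0 IU 33 genes passed under quantile normalization, 30 lower and 3 higher, and the median was -0.13. Loess gave 29 (27 lower and 2 higher) and -0.13. The spread covariate gave 0 (13 at an unadjusted p under 0.05, by limma, which 11.1% of all genes reached) and -0.071. Median centring gave -0.45, where the median of all genes moved to -0.10. In the F test 6 genes passed with the spread covariate. On 0 IU against 2 IU, where 1 gene passed, 2 passed under quantile normalization, 2 under loess, 2 with the lowest 50% of genes left out, 2 with a variance trend and robust moderation, 8 with array weights, 3 with the spread covariate, 5 with only these diets fitted, 3 without replicates 2 and 5 of the 10 IU diet and 4 at a threshold of 0.1. Leaving out 1 array gave 55 to 63 genes on 10 IU against 2 IU, 45 to 55 on 10 IU against 0 IU, 56 to 64 in the F test, and 0 to 2 on 0 IU against 2 IU. The medians then ran from -0.42 to -0.33, from -0.38 to -0.30 and, on 0 IU against 2 IU, from -0.05 to 0.02. Of the 40 calls of genes given by array, 38 to 40 held when 1 array was left out. Signs turned in Cox5a on 10 IU against 0 IU (0.0099 under quantile, 0.063 under loess) and, with the spread covariate, in Sdhc on 10 IU against 2 IU (0.056) and on 10 IU against 0 IU in Atp5f1e (0.18), Atp5mg (0.19), Cox5b (0.066), Cox7b (0.041), Ndufv1 (0.16), Sdha (0.0035) and Sdhc (0.21), none of which passed. The causes were not tested. Same-numbered arrays of different diets correlated at -0.21 to 0.20, 4 of 16 pairs over 0.1, and 1 of 17 arrays correlated best with its own number. These correlations showed no pairing by number but cannot exclude one, and the labels do not say whether the numbers pair the samples. With the replicate number as a block 57 genes passed on 10 IU against 2 IU, 1 on 0 IU against 2 IU and 50 on 10 IU against 0 IU.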
